A study of Mus musculus with 8 samples.

Results

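Microglia of the mouse prefrontal cortex (PFC) are the subject of these results. They are the cells that the authors' deposited annotation of the PFC names as microglia, each found again in the raw count matrix of its own library by its barcode, and they numbered 482 of 8997 annotated PFC cells and of 23687 annotated cells in the series. The PFC data are single-cell RNA-seq libraries of 2 WT and 2 Setd1a+/- groups of mice, made on the droplet-based 10x Chromium platform, and 4 libraries of the striatum with the same layout gave 271 microglia for comparison. Setd1a+/- mice carry 1 copy of Setd1a, a gene of a histone H3K4 methyltransferase, with an 8-bp frameshift placed by CRISPR-Cas9 before the region for its catalytic SET domain, in every cell of the body, and WT mice were their littermates. All mice were male C57BL/6N (the founders were backcrossed to this strain), the labels give an age of 8 to 10 weeks and the study's methods an older adult age, none was treated otherwise, and each library pooled the tissue of 2 mice. The sample labels call the second tissue NAc where the methods describe dorsal and ventral striatum, and it is called striatum here.

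Microglia are the resident macrophages of the brain. They arise from yolk sac progenitors, depend on signalling through the receptor Csf1r and on the transcription factor PU.1, survey the tissue with motile processes that are steered by ADP through P2ry12, and clear debris and synaptic material with the help of complement. In the undisturbed brain they carry a homeostatic set of genes such as P2ry12, Tmem119 and Cx3cr1. Near injury or amyloid they lower that set and raise genes such as Apoe, Spp1 and Cst7.

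The genes that set PFC microglia apart were examined for a sequence that the regulator PU.1 recognises. The letters GAGGAAGT, a common form of the PU.1 site that contains the ETS core GGAAGT, were searched on both strands in RefSeq promoters that run from 250 bases before to 50 bases after each gene start (GRCm38.p6). The letters occurred in 997 of 27025 genes with a promoter (3.69%), in 243 of the 5871 matched genes that reached 10 CPM in PFC microglia (4.14%), and in 33 of the 250 matched genes that were at least 4-fold higher in microglia than in every other PFC cell type (13.2%). CPM is the UMI count of a gene scaled to the same total in every library (counts per 1000000 UMIs), and a UMI tags 1 captured RNA molecule. Among genes at least 10-fold higher the share was 27 of 166 (16.3%). The shorter core GGAAGT was held by 26.5% of all genes, by 35.2% of the genes at 10 CPM and by 48.8% of the 4-fold genes. A site of another factor, TGAGTCA of AP-1, was held by 5.95%, 4.05% and 6.4% in the same order. Of the homeostatic genes described below, 14 were matched. The longer site was held by 1 of them (7.14%), the core by 7 (50%) and the AP-1 site by 1 (7.14%). These shares are descriptions, with no test, and a match does not show that PU.1 binds there. Of the 36 matches in 4-fold genes, 72.2% began within 100 bases of the gene start, against 59.8% of 1073 matches in all promoters. Matches are counted per promoter, so a site in overlapping promoters counts again, as in Pik3cg at -2 and -191. Windows of 30 bases are shown for the marker genes that hold the letters, Ctss and C1qc, and for 4 of the genes with the highest ratios to other types, on the strand of the gene and with the searched letters or their reverse complement in capitals.
Ctss, chr3:95526773-95526802, plus strand: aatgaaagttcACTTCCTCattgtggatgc
C1qc, chr4:136893091-136893120, minus strand: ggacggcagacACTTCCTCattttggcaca
Slamf9, chr1:172475341-172475370, plus strand: taatgtgtacaGAGGAAGTtggagggagaa
Havcr2, chr11:46454912-46454941, plus strand: ctcaggagttaGAGGAAGTaccattttaac
Vav1, chr17:57279078-57279107, plus strand: cagtcacagaaGAGGAAGTggtgttgtagt
Pld4, chr12:112760653-112760682, plus strand: ctcagaacaaaGAGGAAGTgaatggaaggg
The match began at position -2 from the RefSeq gene start in Ctss, -195 in C1qc, -8 in Slamf9 and Havcr2, -11 in Vav1 and 9 in Pld4. The GENCODE start of C1qc, given below, differs from its RefSeq start and lies nearer to the match. The promoters of C1qb and P2ry12 held the ETS core but not the longer site.

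The label was compared with 4 markers, the lysosomal protease Ctss, the complement subunits C1qb and C1qc, and the purinergic receptor P2ry12. In GENCODE vM21 (GRCm38), Ctss lies at chr3:95526786-95556403 on the plus strand, and C1qb at chr4:136880129-136886187, C1qc at chr4:136889804-136893065 and P2ry12 at chr3:59216272-59262871 on the minus strand, and counts are over whole genes. At least 1 UMI of Ctss was found in 481 of 482 cells (99.8%, 95% Wilson interval 98.83 to 99.96), of C1qb in 481, of C1qc in 480 and of P2ry12 in 468 (97.1%, 95.2 to 98.3). In endothelial cells, which should lack them, the shares were 2.82% for Ctss, 2.69% for C1qb, 2.94% for C1qc and 1.47% for P2ry12, at a median depth of 2368 UMIs per cell against 2037.5 in microglia. At least 3 UMIs over the 4 markers were present in 481 microglia, and in 0.144% of excitatory neurons to 1.77% of oligodendrocytes among the other types. At that count all but 1 of the labelled cells held the markers. So did 30 oligodendrocytes and 23 endothelial cells, the largest numbers among the other types. The annotation was built from the same cells and such genes, so these shares describe the label and are no test of it. Of 12 genes that mark macrophages of the brain borders, Cd163, F13a1, Lyve1, Cd209f and Clec10a had no UMI (0 of 482 cells), while Stab1 had a UMI in 66 cells (13.7%), Ccl24 in 12 and Mrc1 in 11. In 78 cells there was 1 UMI of the list, in 6 cells 2, and 2 cells, both in WT replicate 2, held 24 and 7. In these 2 cells 14 of 20 homeostatic genes of microglia had UMIs, such as Ctss with 11, Fcrls with 8 and P2ry12 with 3, and 6 had none, among them Tmem119 and Siglech. Of 14 genes of blood monocytes, granulocytes and lymphocytes, 10 had no UMI, and 1 cell held at least 3 UMIs of the list.

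Numbers of cells differed more between libraries than their depth did. WT replicates 1 and 2 held 265 and 80 microglia, and Setd1a+/- replicates 1 and 2 held 46 and 91. Their summed UMIs ran from 98736 in Setd1a+/- replicate 1 to 564047 in WT replicate 1, so values of Setd1a+/- replicate 1 are the least precise. The median cell had 1980 to 2205.5 UMIs and 884 to 989 genes in the 4 libraries. No microglial barcode was shared between libraries, while 1 to 13 annotated barcodes were shared between pairs of PFC libraries. Markers of another cell type, at least 3 UMIs of 3 marker genes of that type, were found in 84 microglia (17.4%), called candidate doublets here, and made up 10.2% and 35.0% of the cells in the WT libraries and 34.8% and 14.3% in the Setd1a+/- libraries. Endothelial markers were the most frequent, in 46 cells. The candidate doublets had a median of 2573 UMIs and 1277.5 genes, against 2001.5 and 875.5 in the other 398 cells.

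A small part of the genes of PFC microglia stood far above the other 7 PFC types. Of 7445 genes with at least 10 CPM in microglia, 330 (4.43%) were at least 4-fold above the highest other type, 219 at least 10-fold and 78 at least 50-fold, while the median ratio over the 7445 genes was 0.43. The genes closest to the limit had ratios of 4.02 inside and 3.93 outside it. The annotation was built from the same cells, so these ratios are a description and carry no test. The next highest type was endothelial cells for 116 of the 330, oligodendrocytes for 87 and astrocytes for 39. All 330 were at least 2 times their level in empty droplets, barcodes of 10 to 100 UMIs that hold free RNA of the suspension. The 330 genes supplied 23.5% and 21.0% of microglial UMIs in the WT libraries and 18.7% and 24.8% in the Setd1a+/- libraries.

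The 25 genes with the highest ratios at 200 CPM or more are described by what they encode, with no test of a shared function. The chemokine genes Ccl9 and Ccl6 were at 177-fold and 110-fold over the next type. Receptors of the P2Y group were P2ry13 at 156-fold, Gpr34 at 88.0-fold and P2ry12 at 85.7-fold. The 3 subunits of C1q, which starts the classical complement cascade, stood 95.5-fold (C1qa), 103-fold (C1qb) and 95.7-fold (C1qc) above oligodendrocytes. The signalling pair of the receptor Trem2, which binds lipids, and its adaptor Tyrobp were at 86.3-fold and 92.7-fold, and the Fc receptor chain Fcer1g at 88.0-fold. Irf8, a transcription factor of the myeloid lineage, was at 82.6-fold. The sialoglycoprotein Selplg, the fructose transporter Slc2a5, the lysosomal proteins Cd68 and Laptm5, and Tmem119, Fcrls and Aif1 were in the same group at 82.2- to 119-fold. Slamf9, a receptor of the SLAM family whose promoter is shown above, stood at 88.6 CPM in microglia, below the level set for the 25, and in no other type above 0.0535 CPM.

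**Figure D1:**
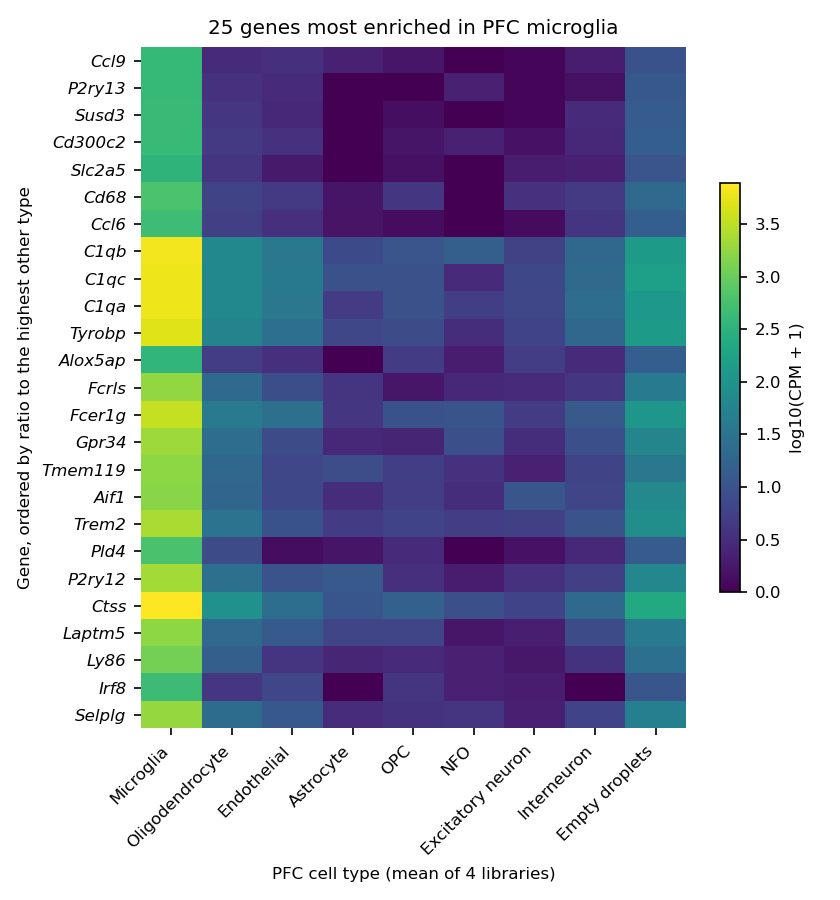
Mean level over 4 PFC libraries, as log10(CPM + 1), of the 25 genes with the highest ratio to any other type at 200 CPM or more, by annotated PFC cell type and in empty droplets (OPC, oligodendrocyte progenitor; NFO, newly formed oligodendrocyte). Ccl9 at the top was 177-fold and Selplg at the bottom 82.2-fold above the next type, and empty droplets held more of all 25 genes than any other cell type did.

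Gene groups of microglia had unequal shares of enriched genes, to be read beside 4.43% and a median ratio of 0.43 over all 7445 genes. Of 20 homeostatic genes, 17 were at least 4-fold enriched, with a median ratio of 73.9. Cst3, which encodes the protease inhibitor cystatin C, was at 98145 CPM in microglia and 17702 CPM in astrocytes, a ratio of 5.54, and Sparc, a matrix protein, was 2.04-fold above endothelial cells. Of 16 phagocytic and Fc receptor genes that reached 10 CPM, 14 were enriched, as were 8 of 9 complement genes. Complement C3, properdin (Cfp) and Cd55 had no UMI in 482 cells, which allows up to 3 UMIs of each.

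Purinergic receptors and potassium channels were divided. Of 12 that reached 10 CPM, 6 were enriched, with P2ry6, a receptor for UDP that triggers uptake, at 54.6-fold and Entpd1 (CD39), which breaks down extracellular ATP, at 2.54-fold. The potassium channel Kcna3 had no UMI.

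Among 15 transcription factors that reached 10 CPM, 7 were enriched, against 4.43% of all genes, and the median ratio was 1.43, against 0.43. Spi1, which encodes PU.1, had 31.9 and 16.2 CPM in the WT libraries and 10.1 and 43.9 CPM in the Setd1a+/- libraries, and oligodendrocytes, the next type, had 0.609 CPM. Sall1, a zinc finger factor of microglial identity, was 4.5-fold above oligodendrocytes. Mef2c, a factor shared with neurons, stood at 696 CPM in microglia and 2522 CPM in excitatory neurons. The level of Mef2c was thus higher in neurons than in microglia.

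Receptors and their ligands were split between cell types. Csf1r, the receptor for the growth factors Csf1 and Il34, was 74.7-fold above the next type, while Csf1 was at 3.15 CPM in microglia and 25.4 CPM in endothelial cells, and Il34 at 15.1 and 81.1 CPM. Cx3cr1 was 60.5-fold enriched, and its neuronal ligand Cx3cl1 was at 8.60 CPM in microglia and 281 CPM in excitatory neurons. Tgfbr1, a receptor for TGF-beta, was 15.1-fold and Ifngr1, a receptor chain for interferon gamma, 5.95-fold above endothelial cells. Among immune receptors, Csf3r, for granulocyte colony-stimulating factor, was 111-fold and Il10ra, for interleukin 10, 78.7-fold above the next type. So the receptor of each of the first 2 pairs was highest in microglia and the ligand elsewhere.

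Of 23 genes of lysosome and lipid handling at 10 CPM or more, 7 were enriched, with a median ratio of 2.27. The proteases Ctsd and Lgmn were 17.6-fold and 8.88-fold above the next type. None of the 16 genes of the interferon response and antigen presentation at 10 CPM or more passed 4-fold, beside 4.43% of all genes. B2m, the light chain of MHC class I, was at 3763 CPM in microglia and 1511 CPM in endothelial cells. Genes induced by neuronal activity or by dissociation, such as Fos, had 1 of 22 enriched, close to the share over all genes, and a median ratio of 0.11, against 0.43.

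Genes that microglia raise near plaques or injury were a mixed group. Of 19 measured, 13 reached 10 CPM and 7 were enriched, among them Trem2 and Tyrobp, and Cst7, an inhibitor of cathepsins, which was at 35.5 and 103 CPM in WT libraries, and 81.0 and 73.2 CPM in Setd1a+/- libraries, and at 0.331 CPM in endothelial cells, the next type. Apoe, the apolipoprotein of brain lipid transport, was at 784 CPM in microglia and 4736 CPM in astrocytes. Spp1 had 2 UMIs in WT replicate 1, 15 in WT replicate 2 and none in the Setd1a+/- libraries, and Itgax had 1 UMI in each of WT replicate 1 and Setd1a+/- replicate 2. The cell cycle gene Mki67 had 2 UMIs, both in Setd1a+/- replicate 2, and Top2a and Ccnb2 had none. Cdk1, a kinase of mitosis, had 1 and 2 UMIs in the WT libraries and 2 and 3 in the Setd1a+/- libraries.

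The 4 libraries varied in the homeostatic genes themselves. Over the 20 genes the highest library was 1.28 to 2.90 times the lowest, with a median of 1.80, and WT replicate 2 was lowest for 16 of them and WT replicate 1 highest for 14. P2ry12 was at 3314 and 1152 CPM in WT libraries, and 2390 and 2015 CPM in Setd1a+/- libraries. Its WT libraries were the highest and the lowest, with both Setd1a+/- libraries between them. The median cell held 7 and 2 UMIs of P2ry12 in WT and 4 and 4 in Setd1a+/- libraries. Cx3cr1, the fractalkine receptor, was at 2106 and 1352 CPM in WT libraries, and 1550 and 1624 CPM in Setd1a+/- libraries, again with WT at both ends. WT replicate 2, low in these genes, also had the larger share of candidate doublets of the WT libraries. Without candidate doublets P2ry12 was at 3585 and 1355 CPM in WT libraries, and 2840 and 2223 CPM in Setd1a+/- libraries. The part of doublets in the spread of the homeostatic genes was not tested.

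Complement C1q genes followed another order. C1qb was at 5404 and 8053 CPM in the WT libraries and at 2836 and 10404 CPM in the Setd1a+/- libraries, and C1qa was at 4432 and 7691 CPM and at 2218 and 10336 CPM. Both were higher in the libraries numbered 2 than in those numbered 1 in each genotype, by 2.24 times for C1qb and 2.71 times for C1qa on the mean. C1qc was at 7264 and 5338 CPM in WT libraries, and 4791 and 7609 CPM in Setd1a+/- libraries, a ratio of 1.07. The median cell held 11 and 17.5 UMIs of C1qb in WT and 5 and 22 in Setd1a+/- libraries, so the median cell moved with the library. The genotype means of C1qb, 6729 ± 1874 CPM (SD, n = 2) in WT and 6620 ± 5352 CPM in Setd1a+/- libraries, differed by less than the spread between replicates.

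**Figure D2:**
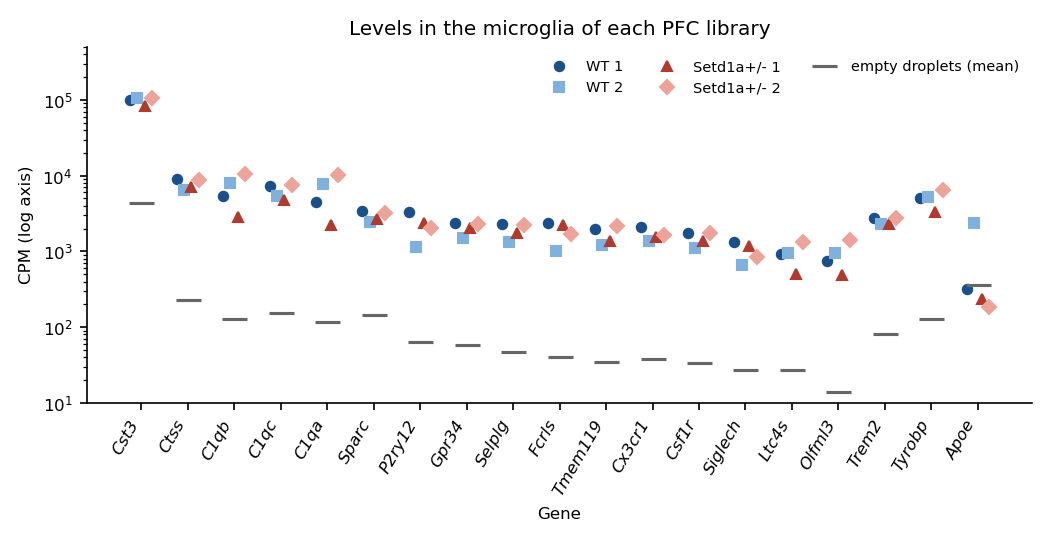
Level of 19 genes in the microglia of each PFC library, as CPM on a log axis, with WT libraries in blue, Setd1a+/- libraries in red, and the mean of empty droplets as a grey dash. Ctss ranged from 6371 to 8914 CPM and P2ry12 from 1152 to 3314 CPM, C1qa and C1qb were higher in both libraries numbered 2, and Apoe stood apart in WT replicate 2 (2396 CPM).

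Setd1a, the gene that was mutated, was barely captured in microglia. It had 2 and 1 UMIs in the WT libraries and 0 and 2 in the Setd1a+/- libraries, which is 3.55 and 5.41 CPM and 0 and 9.76 CPM. The groups overlapped, and empty droplets held 9.65 CPM, more than the mean of microglia at 4.68 CPM. It did not pass the filter on low counts, so a lower level in Setd1a+/- microglia could not be seen at this depth, and a frameshift need not lower its mRNA. Its complex was also sparse. Of 16 genes of H3K4 methyltransferases and their subunits, 11 reached 10 CPM, none was enriched, and Dpy30, a shared subunit, was the only one tested between genotypes, at 78.0 and 70.3 CPM in WT libraries, and 60.8 and 68.3 CPM in Setd1a+/- libraries (log2 fold change (FC) -0.17 ± 0.41 SE, unadjusted p = 0.692 in edgeR).

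Between the genotypes no gene of PFC microglia passed the test. In edgeR's quasi-likelihood test of UMIs summed per library, 0 of 2641 genes (0%) had a Benjamini-Hochberg FDR under 0.05 with an FC above 1.5, the smallest FDR was 0.9997, and 14 genes (0.53%) had an unadjusted p under 0.05, 6 higher and 8 lower in Setd1a+/-. DESeq2 called 0 genes and had 3 at an unadjusted p under 0.05. The median log2 FC was 0.02 over all genes tested and 0.08 over the 206 tested genes that were enriched in microglia, of which 2 had an unadjusted p under 0.05. With 2 libraries a group, the genotypes did not overlap in 611 genes (23.1%), and in 327 of them (12.4% of those tested) the Setd1a+/- values were the lower ones. Genes named below for the smallest p were picked on these same libraries, so a lack of overlap in them is no added support.

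The 5 genes with the smallest p among those lower in Setd1a+/- were not genes of microglial identity. Apoe was at 321 and 2396 CPM in WT libraries, and 233 and 185 CPM in Setd1a+/- libraries, a log2 FC of -2.72 ± 0.87 (SE, unadjusted p = 0.0156, FDR = 0.9997, edgeR). WT replicate 2 alone was high, and without it the log2 FC was -0.63. In that library 53.8% of cells had a UMI of Apoe and 10 cells had at least 10, against 2 cells in WT replicate 1 and none in Setd1a+/- libraries. Apoe in WT replicate 2 was 1855 CPM without the 2 cells of border genes and 2692 CPM without candidate doublets, and astrocytes, with 4736 CPM, held more of it than microglia.

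Hbb-bs, a beta-globin of red blood cells, was at 901 and 32.5 CPM in WT libraries, and 30.4 and 53.7 CPM in Setd1a+/- libraries (log2 FC -3.36 ± 1.26, unadjusted p = 0.0307 in edgeR). Of 508 UMIs in WT replicate 1, 437 (86.0%) came from 1 cell. Rin2, a regulator of endocytosis, was at 151 and 59.5 CPM in WT libraries, and 40.5 and 29.3 CPM in Setd1a+/- libraries, with a log2 FC of -1.69 ± 0.58 (unadjusted p = 0.0208, edgeR). Its groups did not overlap, and the 2 WT libraries differed more from each other than the lower of them did from the Setd1a+/- libraries. The remaining pair were Gm42418, a locus that overlaps ribosomal RNA, with a log2 FC of -1.91, and mt-Atp8, with -1.81, whose reads cannot be separated from those of the mitochondrial gene it overlaps.

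Among genes higher in Setd1a+/-, 2 chemokines stood out by being enriched in microglia. Ccl6 was at 335 and 357 CPM in WT libraries, and 668 and 561 CPM in Setd1a+/- libraries, and both Setd1a+/- libraries were above both WT libraries. Its log2 FC was 0.83 ± 0.33 (unadjusted p = 0.0407, FDR = 0.9997, edgeR), and 0.73 to 0.87 when each library was left out in turn. Ccl9 was at 358 and 200 CPM in WT libraries, and 547 and 517 CPM in Setd1a+/- libraries, again without overlap, with a log2 FC of 0.92 ± 0.39 (unadjusted p = 0.0460, FDR = 0.9997, edgeR). Neither passed the correction for 2641 genes. They are the 2 enriched genes counted above at an unadjusted p under 0.05.

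Tsc22d3, which glucocorticoids induce, was at 95.7 and 222 CPM in WT libraries, and 567 and 341 CPM in Setd1a+/- libraries (log2 FC 1.53 ± 0.51, unadjusted p = 0.0183, edgeR). Its groups did not overlap. Candidate doublets held 50% and 70.7% of its UMIs in WT and 82.1% and 38.6% in Setd1a+/- libraries, and it stood at 1897 CPM in endothelial cells. Without candidate doublets it was at 56.2 and 105 CPM in WT libraries, and 169 and 256 CPM in Setd1a+/- libraries. Cd34, a glycoprotein of endothelial and blood progenitor cells, had a log2 FC of 1.04 ± 0.36, and Hmgn2, a nucleosome-binding protein, of 1.10 ± 0.38. Without candidate doublets Cd34 was at 121 and 87.4 CPM in WT libraries, and 186 and 268 CPM in Setd1a+/- libraries. Hmgn2 was then at 52.0 and 69.9 CPM in WT libraries, and 118 and 95.1 CPM in Setd1a+/- libraries. The summed level of 8 endothelial markers was 1220 and 3013 CPM in WT libraries, and 3494 and 746 CPM in Setd1a+/- libraries, with overlap, and its part in these differences was not tested.

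**Figure D3:**
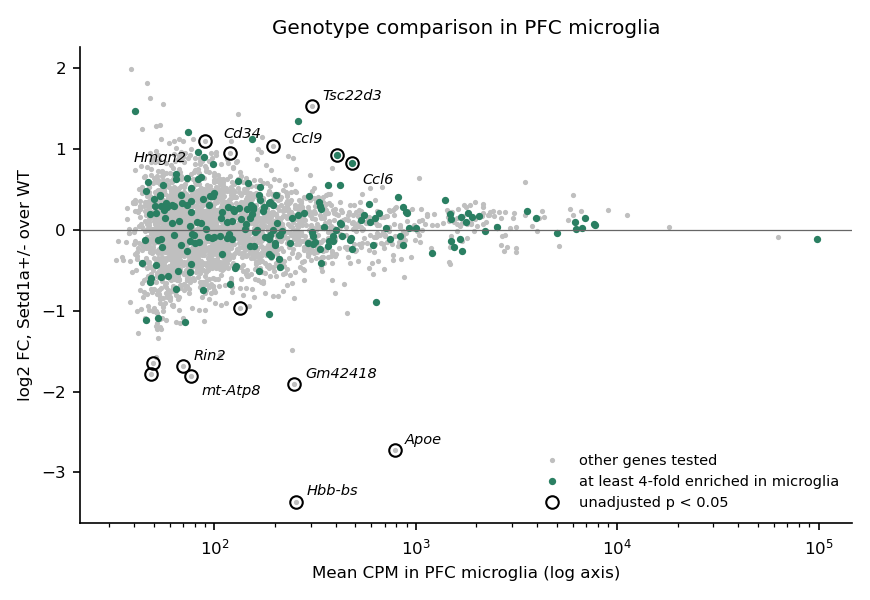
Log2 FC of Setd1a+/- over WT in PFC microglia against the mean CPM on a log axis, for 2641 tested genes, with genes at least 4-fold enriched in microglia in green and the 14 genes of unadjusted p under 0.05 circled. Most enriched genes lie close to 0, their median was 0.08, and Apoe and Hbb-bs lie lowest.

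The functional groups had medians near 0 between genotypes. No member of the 20 homeostatic genes had an unadjusted p under 0.05 and their median log2 FC was 0.07, beside 0.02 over all genes. The same held for the 9 tested complement genes (median 0.00), 13 phagocytic and Fc receptors (0.03), 10 transcription factors (-0.07), 15 cytokine receptors and ligands (0.08), 6 purinergic receptors and channels (0.24) and 8 genes of interferon response and antigen presentation (-0.08). Ctss had a log2 FC of 0.06 ± 0.37 and C1qc of 0.00 ± 0.40, while the error of C1qb was larger, at 0.02 ± 0.63. The sign of these values, and of P2ry12 at -0.01 ± 0.49, turned under other settings. Of 11 tested genes of the injury-associated group, 2 had an unadjusted p under 0.05, Apoe with a negative and Ccl6 with a positive log2 FC, beside 0.53% of all genes tested.

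Some inflammatory genes came from few cells. Of 22 such genes 7 were tested, and, beside 0.53% of all genes tested, Ccl9 alone had an unadjusted p under 0.05 in edgeR. It was spread over cells, with a UMI in 119 of 265 and 25 of 80 cells in the WT libraries and in 28 of 46 and 55 of 91 cells in the Setd1a+/- libraries. Ccl4, a chemokine of activated microglia, had 101 UMIs in WT replicate 1, and 93 of them were in 1 cell, which left 4, 5 and 1 UMIs in the other 3 libraries. Ccl3 had 65 UMIs in WT replicate 1 with 54 in 1 cell. Ccl12 had 64 UMIs in Setd1a+/- replicate 1 with 50 in 1 cell, and 59, 33 and 22 UMIs in the others. Il1b was found in 1 cell of 482, with 6 UMIs, in Setd1a+/- replicate 1. In each of these 4 genes, 1 cell held most of the UMIs of the highest library. Cd74, the invariant chain of MHC class II, had 16 UMIs in WT replicate 2 and 17 in Setd1a+/- replicate 2, and none in the libraries numbered 1.

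**Figure D4:**
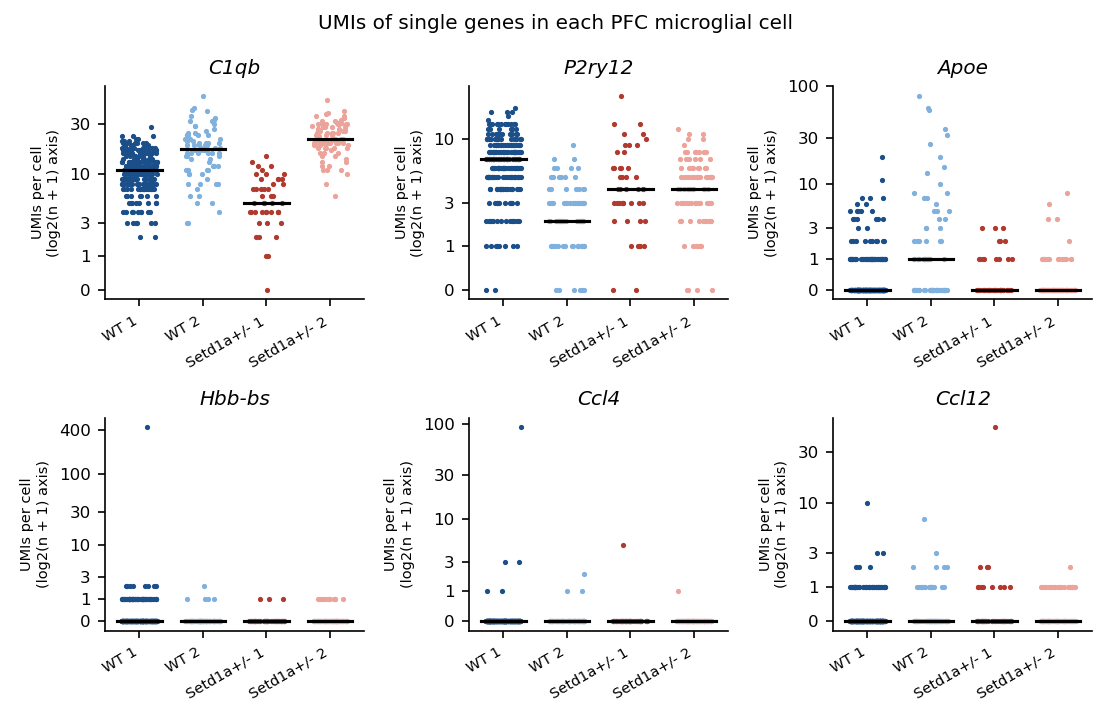
UMIs of 6 genes in each PFC microglial cell by library, on a log2(n + 1) axis, with a black bar at the median. C1qb has medians of 11, 17.5, 5 and 22 in the order of the libraries, with overlap of the cells, Apoe reaches 79 UMIs in WT replicate 2, and Hbb-bs, Ccl4 and Ccl12 each have 1 cell far above the rest.

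The share of microglia among annotated PFC cells did not separate the genotypes. It was 10.1% (95% Wilson interval 9.01 to 11.3) and 2.99% (2.41 to 3.70) in the WT libraries and 2.10% (1.58 to 2.80) and 6.03% (4.94 to 7.35) in the Setd1a+/- libraries. WT replicate 1 was highest and the groups overlapped. The means were 6.54% ± 5.03 (SD, n = 2) in WT and 4.07% ± 2.78 in Setd1a+/- libraries, a difference of -2.47 points (2-sided exact permutation test over libraries, p = 0.667). The smallest p that 2 against 2 libraries allow is 0.333, so no difference could have passed. Without WT replicate 1 the difference was 1.08 points, and as a share of non-neuronal cells it was -2.64 points (exact permutation p = 0.667).

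PFC microglia were then compared with microglia of the striatum in a fit of 8 libraries with genotype as a covariate. Here edgeR called 642 of 2996 genes (21.4%), 268 higher in PFC (8.95%) and 374 lower (12.5%). The methods give a longer enzyme digestion for striatum than for PFC, so effects of tissue and of dissociation cannot be told apart. Of 17 tested genes induced by neuronal activity or by dissociation, 0 were called higher in PFC and 5 lower, beside the 12.5% above. Their median log2 FC was -0.84, against 0.03 over all genes tested. Of the 27 genes of this list, 3 reached 2 times their empty-droplet level in PFC microglia. Summed over the list, PFC libraries held 2678 to 5165 CPM, against 7243 CPM in PFC empty droplets. Striatal libraries held 5289 to 9082 CPM, against 8931 CPM in striatal empty droplets. The part of free RNA in this difference was not tested. Medium spiny neuron genes were the lowest in PFC. All 7 tested genes of that neuron type were called lower, and among the 12 called genes with the largest folds, Tac1, Cartpt, Nrsn2, Penk, Ppp1r1b, Smpd3, Ralyl, Sez6, Gnal, Spock3 and Rasd2, are known from neurons. Tac1, a neuropeptide gene, was at 1.77, 0, 0 and 0 CPM in PFC microglia and at 697, 889, 616 and 702 CPM in striatal microglia, with 15.5 and 1668 CPM in the empty droplets of the 2 tissues. The summed level of 11 medium spiny neuron markers was 12.4 to 70.9 CPM in PFC and 2147 to 3287 CPM in striatal libraries.

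Of the 187 tested genes that were enriched in PFC microglia, a set chosen on its level in the PFC libraries and so favoured to be higher there, 76 were higher in PFC and 1, Lyz2, lower, with a median log2 FC of 0.86 against 0.03 for all genes. Of 20 homeostatic genes, 16 were called higher (median 1.01), beside 8.95% of all genes tested. Without candidate doublets, 10 genes of any kind were called higher, with 214 of the higher calls tested again. Among the 16 were P2ry12, which was at 1152 to 3314 CPM in PFC and 463 to 964 CPM in striatum (log2 FC 1.59 ± 0.34, FDR = 0.0073, edgeR), and Gpr34 at 1.44 ± 0.26. The fit was repeated on the 548 genes that stood at least 2 times above their empty-droplet level in both tissues, with scaling on these genes alone. Such scaling centres the set near 0 by construction, so calls lost in it do not bear on the direction of microglial genes as a group. The log2 FC of the 542 genes in both fits moved by -0.77 at the median, and of 188 earlier calls among them, 183 higher and 5 lower in PFC, 4 remained. It called 5 genes (0.912%), all lower in PFC, and none of the 20 homeostatic genes, whose median was 0.24. On that scale P2ry12 had a log2 FC of 0.77 ± 0.24 (FDR = 0.196, edgeR), and Ctss had 0.27 in place of 1.11. C1qb changed sign, from 0.39 to -0.39, and passed the test on neither scale.

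The genes lower in PFC on both scales included genes also known from other macrophages, of which Lyz2 was itself 14.8-fold enriched in PFC microglia. Lyz2, a lysozyme of macrophages and monocytes, was at 466, 1190, 425 and 463 CPM in PFC and 1470, 1847, 4445 and 867 CPM in striatum, so that 1 striatal library lay below 1 PFC library, and in that striatal library 51 of 58 UMIs were in 1 cell (log2 FC -1.68 on all genes, and -2.35 with FDR = 0.0468 on the genes above empty droplets, edgeR). Pf4, a chemokine of border macrophages, was present in 2 PFC cells of WT replicate 2 and at 386, 249, 259 and 0 CPM in striatum. Ifi27l2a, which interferon induces, was at 10.1 to 48.7 CPM in PFC and 71.4 to 130 CPM in striatum, without overlap, and Pfn1, an actin-binding protein, at 90.4 to 244 and 344 to 812 CPM. Sdf2l1, a protein of the endoplasmic reticulum, was called on the genes above empty droplets only. Cells with at least 3 UMIs of border macrophage genes made up 0.415% of PFC microglia and 6.64% of striatal microglia, and leaving them out gave 680 calls. Without these cells Lyz2 no longer passed on all genes (log2 FC -1.26, FDR = 0.108, edgeR), while Pfn1 did (-1.59, FDR = 0.0175).

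Cd74 had a log2 FC of -4.89 (FDR = 0.0240, edgeR), and of -5.92 (FDR = 0.0867) on the genes above empty droplets. It was at 0, 86.5, 0 and 82.9 CPM in PFC and at 244, 3307, 44.6 and 1882 CPM in striatum, and the striatal libraries overlapped with those of the PFC. Single cells held 120 of its 126 UMIs in striatal Setd1a+/- replicate 2, 35 of 58 in striatal WT replicate 1 and 13 of 16 in PFC WT replicate 2, while in striatal WT replicate 2, the highest, 770 UMIs were spread over 15 cells with 222 in the top one. Among genes higher in PFC on all genes, Havcr2, the checkpoint receptor Tim-3 whose promoter window is shown above, had a log2 FC of 1.89 ± 0.34, and Golm1, a Golgi protein of the homeostatic group, of 1.88 ± 0.40. They had 1.13 and 1.11 on the genes above empty droplets and did not pass there (FDR = 0.0867 and 0.128, edgeR). The astrocyte genes Aldoc, Slc1a2 and Slc1a3 were also higher in PFC, and Aldoc was at 617 CPM in empty droplets of the PFC against 274 CPM in those of the striatum.

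**Figure D5:**
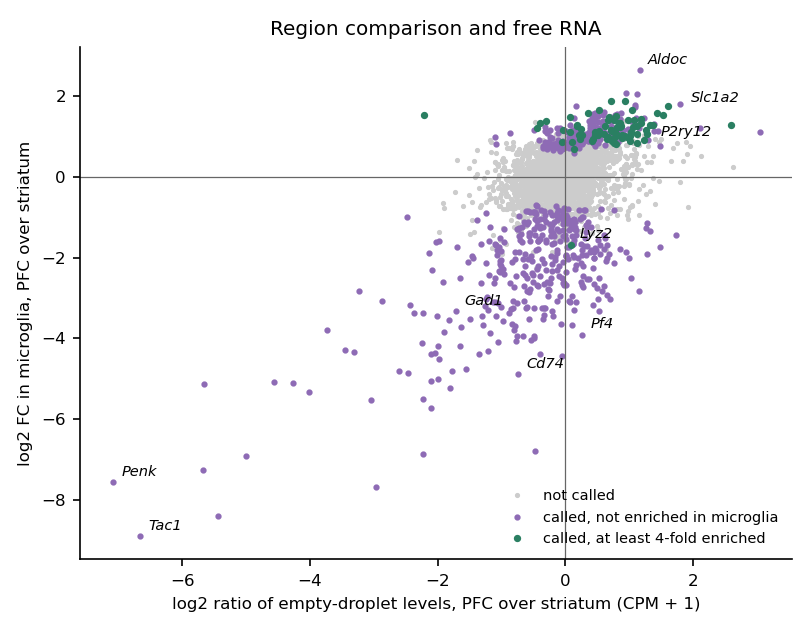
Log2 FC of PFC over striatal microglia against the log2 ratio of the levels in empty droplets of the 2 tissues (CPM + 1), for 2996 tested genes, with called genes in purple or, where enriched in PFC microglia, in green. The correlation across genes was 0.53, and neuron genes such as Tac1 and Penk lie at the lower left, low in both microglia and empty droplets of the PFC.

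Free RNA and doublets moved with these differences. Across the 2996 genes, which are not independent replicates and come from the same libraries on both axes, the log2 FC and the log2 ratio of empty-droplet levels had a Pearson r of 0.53. Of the 374 genes lower in PFC microglia, 259 (69.3%) were also lower in PFC empty droplets, against 54.6% of all genes. Candidate doublets were 17.4% of PFC and 40.2% of striatal microglia, and cells with at least 3 UMIs of the 3 interneuron markers 0.83% and 19.9%, although in striatum 65.0% of D1 and 65.8% of D2 medium spiny neurons also reached that count. Without candidate doublets the test called 65 of 1476 genes (4.4%), 10 higher and 55 lower in PFC. Scaling by total UMIs gave 109 higher and 448 lower genes, so that 19.6% of calls were higher against 41.7%, and moved the log2 FC of all genes by -0.19 at the median. The count fell to 355 without PFC WT replicate 1, and to 325 and 282 without striatal WT replicates 1 and 2.

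The genotype effect did not differ detectably between the tissues. The genotype-by-tissue term had 0 of 4108 genes called (0%) in edgeR, with 38 at an unadjusted p under 0.05, and in DESeq2 0 called and 14 under 0.05. For Apoe the term had an unadjusted p of 0.114, for Ccl9 0.726 and for Ccl6 0.968 (edgeR). These p-values miss the threshold and do not show that the tissues responded alike.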

How the data were processed

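Cells were dissociated from PFC or striatum and captured with 10x Chromium. The authors deposited, for each library, raw UMI counts per gene and droplet barcode (Cell Ranger 3.0.2 and mm10 per the submitters' processing notes, with Seurat 3.2.0 for annotation), and tables of annotated cells with cell type, library and percent of mitochondrial UMIs. The authors removed cells under 800 genes or over 10% mitochondrial UMIs and named the clusters. The deposited percent was read and entered no test. The members and gene lists were chosen with earlier results of these data known.

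UMIs were summed over microglia per library. Counts were tested with edgeR 4.0.16 (quasi-likelihood, TMM, filterByExpr at its minimum count of 10, with Benjamini-Hochberg over all genes tested) in R 4.3.3, and called at FDR < 0.05 and FC > 1.5. SE is the absolute log2 FC divided by the square root of F. DESeq2 1.42.0 was an alternative, and the study's test over single cells, DEsingle, was not run. Python 3.11.15 (numpy 2.4.6, scipy 1.17.1, pandas 2.3.3) did the rest. The fits were run on simulated counts with a fixed spread between libraries and no doublets or outlier cells. Those runs do not show how often real changes would be found in these libraries. The main fits and the permutation test did not pair libraries. Libraries of the same number were paired only in the alternative fits with the replicate as a block. That block was used because the methods place 1 WT and 1 mutant sample in each biological replicate. Between genotypes 32 genes had an unadjusted p under 0.05 in edgeR with the block, against 14 without it. The deviations of same-numbered PFC libraries from their genotype means had a correlation of 0.13. Each library is a pool of tissue from 2 mice, so p-values measure the spread between pools. The methods do not state whether PFC and striatal pools came from the same mice, and the main fits treat them as independent.

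Type levels are means of CPM over 4 libraries, and the highest other type was raised to a floor of 3 UMIs where it was below. Other alternatives were total UMIs for scaling, filters on low counts, leaving out each library, mitochondrial and ribosomal protein genes, border macrophage cells, candidate doublets, or genes under 2 times their empty-droplet level. Wilson intervals and floors cover counting error only. Genes were named by rule: the 4 markers and Setd1a, the 25 highest ratios at 200 CPM or more, the 4 highest members of each list, the 5 smallest p per direction between genotypes and the 12 largest called folds per direction between tissues; other members were named after their values were seen. Clec7a is not analysed here, and some other genes are not reported here. Promoter sequences and coordinates are from RefSeq (GRCm38.p6).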

Additional observations from a re-analysis of the deposited data

How the results depend on the processing

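Between genotypes 5 genes were called without a filter on low counts, all lower in Setd1a+/- (Apod, Apoe, Hba-a1, Hba-a2 and Hbb-bs, of which Hba-a1 and Hba-a2 are near-identical copies), and 0 to 3 when 1 library was left out; the 3 without WT replicate 2 were globin genes, and 1 was called without Setd1a+/- replicate 1. With the replicate as a block, pairing libraries of the same number, edgeR called 0 genes between genotypes, 713 between tissues (635 of the 642 among them) and 0 for the genotype-by-tissue term. Between tissues the count was 1009 with a minimum count of 3, 1302 with no filter, 65 without candidate doublets, 5 on genes above empty droplets, and 282 to 928 when 1 library was left out. The genotype-by-tissue term had 5 calls with no filter (Hba-a1, Hba-a2, Hbb-bs, Il1b and Spp1). The difference in the share of microglia ran from -6.03 to 1.08 points, reversed to 1.08 without WT replicate 1. At 50 CPM or more 199 of 2556 genes were at least 4-fold enriched, against 330 of 7445 at 10 CPM, as fewer genes reached the higher level. The count at 10 CPM was 312 to 332 when 1 library was left out. Where no construction shows it, the cause was not tested. The 4 markers, near 0 between genotypes and never called, turned sign. The log2 FC of C1qb, positive as reported, was -0.049 with total UMIs, -0.036 with no filter, -0.27 with the replicate block and -0.086 without candidate doublets. That of C1qc was -0.035 with total UMIs, -0.0074 with a minimum count of 3, -0.15 with no filter, -0.042 with the block, -0.0023 without border macrophage cells and -0.036 in the fit of 8 libraries. Ctss had -0.12 with no filter, and P2ry12, negative as reported, had 0.16 with the block and 0.019 without candidate doublets. Leaving out 1 library gave C1qb -1.41 to 0.69, C1qc -0.55 to 0.34, Ctss -0.27 to 0.27 and P2ry12 -0.60 to 0.89. Between tissues C1qb was -0.39 and C1qc -0.056 on genes above empty droplets, and C1qb was -0.10 to 0.70 when 1 library was left out, lowest without PFC Setd1a+/- replicate 2. For the genes followed under each setting, 155 genotype values kept direction and call, 3 became stronger and 20 turned sign, and of the tissue values 511 kept them, 59 became weaker, 3 stronger and 3 turned sign. Summed microglial UMIs were lowest among PFC libraries in Setd1a+/- replicate 1, with 46 microglia. Among striatal libraries they were lowest in Setd1a+/- replicate 2, with 24 microglia and 66934 UMIs.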
